A study of Mus musculus with 18 samples.

Results

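Loss of the methyl-CpG-binding protein Mbd2 and exposure to dextran sulfate sodium (DSS) were examined together in mouse colon epithelial cells (CECs), to ask for which transcripts the effects of the 2 add up, fall short of their sum or exceed it. All 4 groups of the series entered this comparison, through the averaged signal of each array. The 18 arrays held 16 samples, 4 per group, because 2 arrays were repeats (4R of DSS_WT sample 4, and 5R of DSS_KO sample 5) that were averaged with their originals. Per probe, the comparison was (DSS_KO minus DSS_WT) minus (Naive_KO minus Naive_WT) on the log2 scale. This value is called the departure below. A departure of 0 means that the log2 change seen with both factors equals the sum of the 2 separate log2 changes, and a departure of 1 is a 2-fold difference from that sum. Of 45281 probes, 21938 were tested, those that 4 or more arrays detected at a p-value under 0.05.

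Naive_WT and Naive_KO cells came from wild-type and Mbd2-/- mice without DSS, and DSS_WT and DSS_KO cells from wild-type and Mbd2-/- mice given 2% DSS in the drinking water for 6 days. All had a C57BL/6 background, were 8 to 22 weeks old, matched for age and sex, and were kept with wild-type littermates where that was possible. The deletion was in the whole animal and not only in the epithelium. CECs were sorted as EpCAM+ cells without CD45, CD3 and F4/80, each sample held cells of 1 to 5 mice, and RNA was read on Illumina MouseWG-6 bead arrays. The samples came from several experiments, which the labels do not assign to samples, so an experiment and a group cannot be told apart where they coincide, and p-values measure the spread between these samples.

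Mbd2 binds DNA at methylated CpG dinucleotides and brings the nucleosome remodelling and deacetylase (NuRD) complex to them, a route by which methylated genes are kept silent. DSS damages the colonic epithelium, so that microbes reach the mucosa and an inflammatory response rich in interferon and cytokines follows. Epithelial cells under such a response raise antigen presentation and antimicrobial lectins, and lower the transporters and enzymes of mature colonocytes.

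Each array detected between 18851 and 20618 probes. All 9 epithelial markers were detected on all 18 arrays. So were all 5 smooth muscle and all 6 fibroblast markers, while the general leukocyte marker Ptprc (CD45) was detected on 3. Of the myeloid markers Cd68 and Csf1r were detected on all 18 arrays, Adgre1 (F4/80, used in the sort to exclude cells) on 14 and Itgam on 0. The 1 Mbd2 probe was detected on 0 of 18 arrays, wild-type arrays included, so it does not check the genotype labels. The repeat arrays differed from their originals with an SD of 0.194 and 0.236 log2 units over probes, against 0.287 to 0.482 between separate DSS samples of a genotype. On the first 2 principal components (31.0% and 21.8% of the variance) the groups separated along the added and the opposed effects of genotype and DSS. The third component (7.87%) set Naive_WT and DSS_KO against Naive_KO and DSS_WT, as the departure does, with overlap: Naive_WT samples lay between 2.15 and 25.6 and Naive_KO samples between -21.0 and -9.67, whereas DSS_WT samples lay between -29.4 and 10.1 and DSS_KO samples between -4.94 and 15.9. DSS_WT sample 2 stood apart from its group on this component. On the second, Naive_KO sample 15 did, at 52.9 against 19.1 to 26.1 in the other Naive_KO samples. Ddx3y, a Y-linked gene, was at 9.48 to 10.37 in Naive_WT and 8.87 to 9.32 in Naive_KO, with a departure of 1.11 log2 units. Xist, which is expressed in females, was at 9.46 to 10.30 in Naive_WT and 9.36 to 10.72 in Naive_KO, which overlapped, at 8.44 to 8.96 in DSS_WT and 8.43 to 9.35 in DSS_KO, with a departure of 0.26. The part of a differing share of males in the pools in other departures was not tested.

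No probe was called for the departure (0%) at an adjusted p under 0.01 and a size of 1 log2 unit or more, by limma with Benjamini-Hochberg adjustment over all tested probes. The smallest adjusted p was 0.131. At an unadjusted p under 0.05, 1220 probes (5.56%) lay above the sum and 1119 (5.1%) below it. The missing calls do not show that effects added up, and the intervals say how far each estimate reaches. For 18274 probes (83.3%) the whole 95% interval of the departure lay within 1 log2 unit of 0, so that a departure of 2-fold or more in either direction was outside the interval. The median half-width of the interval was 0.46 log2 units. Transcripts with clear effects varied more: the interval stayed within 1 log2 unit for 66 of the 271 probes called for genotype and for 148 of the 454 called for DSS.

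Of the probes at an unadjusted p under 0.05, 1179 of 1220 above the sum and 1063 of 1119 below it were called for neither average effect. Their genotype difference mostly changed sign between the naive and the DSS state, in 963 probes above the sum and 807 below it. Probes above the sum had a median Mbd2-/- minus wild-type difference of -0.35 without DSS and 0.26 with it. Those below the sum had 0.25 and -0.29. These probes were chosen by the departure, so the signs are a description of what it consists of.

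To see where departures lay among transcripts that do respond, probes were grouped by their average genotype effect (the mean of the Mbd2-/- minus wild-type differences with and without DSS) and their average DSS effect (the mean of the DSS minus naive differences in both genotypes), each called at an adjusted p under 0.01 and 1 log2 unit. With equal group sizes the errors of these averages are uncorrelated with the error of the departure. A change present only with both factors still enters both averages, so a true departure can place a transcript in a class. Genotype raised 152 probes (0.693%) and lowered 119 (0.542%), and DSS raised 318 (1.45%) and lowered 136 (0.62%), by limma. Both effects were called together for 67 probes: 43 raised by both, 21 lowered by both and 3 with opposed effects.

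Most transcripts raised by both factors lay short of the log2 sum, and most of those lowered by both lay beyond it, by estimates whose intervals mostly included 0 (37 of 43 and 16 of 21). Among the 43 probes raised by both, from 37 genes, 32 had a departure below 0, against 51.8% of all tested probes. Their median departure was -0.47. At an unadjusted p under 0.05, 5 of the 43 lay below the sum and 1 above it, beside 5.1% and 5.56% of all tested probes. In medians, the sum of the separate changes was 3.97 log2 units and the combined change 3.52. Among the 21 probes lowered by both, from 18 genes, 18 had a departure below 0, which here is a deeper loss than the sum. The median departure was -0.70, the summed change -2.47 and the combined change -2.87. The 3 probes with opposed effects, of Igfals, Adamts9 and Hcn2, had departures of -0.61, -0.51 and 1.03.

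The genes raised by both included genes of the interferon-gamma response and of antigen presentation, described further on. Of the interferon-inducible GTPases, which act against intracellular microbes, Ifi47 (-0.61), Igtp (-0.55) and Irgm2 (-0.54) lay below the sum and Irgm1 (0.05) and Tgtp1 (1.00) above it. The ubiquitin-like protein Ubd stood at 1.00, the serpin Serpina3g at -0.63, the lectin Lgals9 at -0.03, and Duoxa2, the maturation factor of the oxidase Duox2, at -0.22. None of these 9 had an interval without 0. The genes lowered by both included the amine oxidase Maob (-1.03), the membrane protease Tmprss13 (-0.95), the P450 enzyme Cyp2c67 (-0.82), colipase (Clps, -0.78), the complement regulator C4bp (-0.55) and Itih2 (-0.23), all below 0. These were chosen from the classes after their values were seen.

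**Figure D1:**
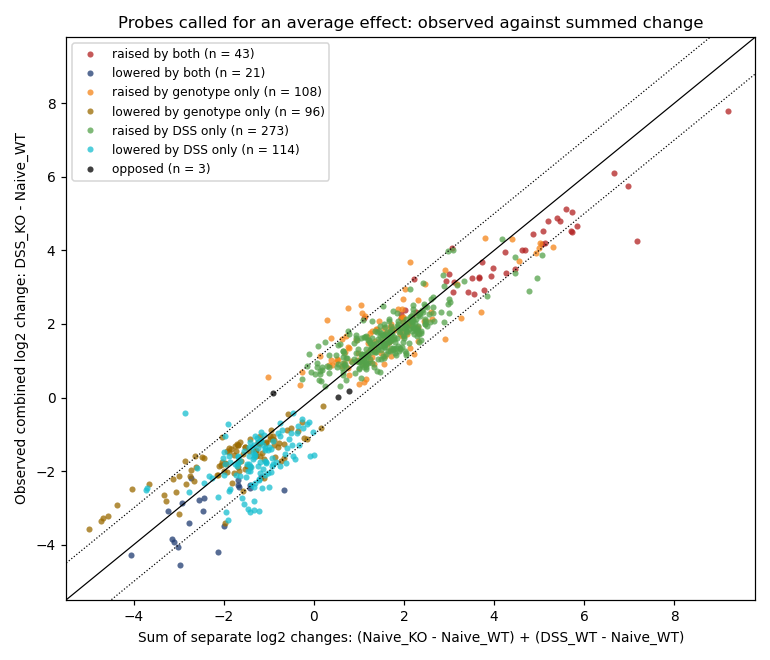
Observed combined log2 change (DSS_KO minus Naive_WT, vertical axis) against the sum of the separate log2 changes (horizontal axis) for the probes called for either average effect, coloured by class. The solid line is equality and the dotted lines lie 1 log2 unit to either side. Of the probes raised by both 32 of 43 lie under the line, and of those lowered by both 18 of 21. The axes share the Naive_WT mean, which the sum uses for both changes, so the spread along the line is not a test.

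Transcripts that DSS alone lowered also lay mostly below the sum. Of 114 probes lowered by DSS and not called for genotype, 83 had a departure below 0, with a median of -0.44. At an unadjusted p under 0.05, 23 of them lay below the sum and 5 above it, beside 5.1% and 5.56% of all tested probes. The median DSS change in this class was -1.06 in wild-type and -1.47 in Mbd2-/- cells. The median departure was -0.05 for the 273 probes raised by DSS only, 0.08 for the 108 raised by genotype only and 0.02 for the 96 lowered by genotype only, beside -0.01 for all tested probes. Probes of a class share the same 16 samples and are not independent, and differences between classes were not tested. Leaving out each sample in turn gave 29 to 36 of 43, 16 to 20 of 21 and 82 to 92 of 114 below 0. For the first class the highest count was reached without DSS_WT sample 2 and also without Naive_WT sample 11.

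**Figure D2:**
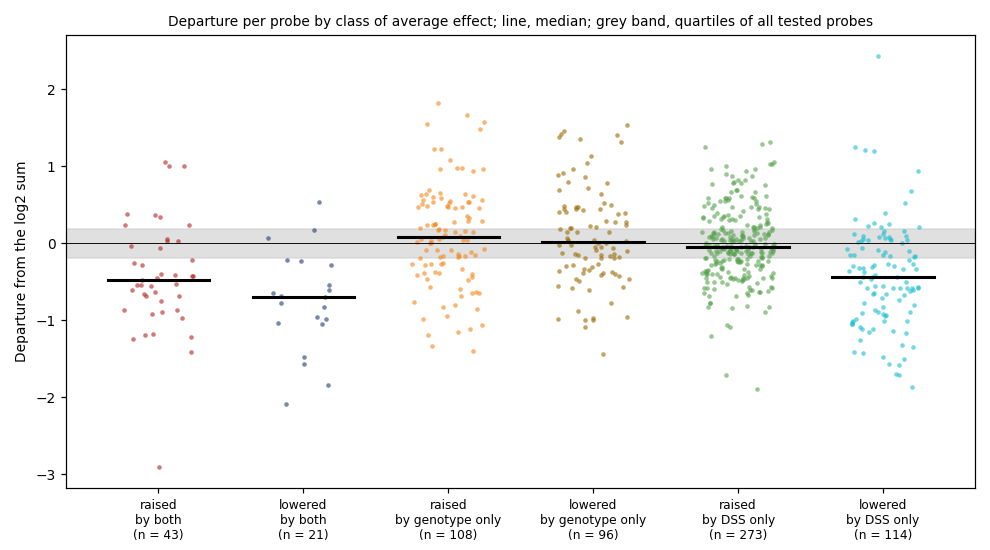
Departure from the log2 sum (vertical axis) of each probe in 6 classes of average effect, with the number of probes under each class, the class median as a black line and the quartiles of all tested probes as a grey band. The medians of probes raised by both, lowered by both and lowered by DSS only lie below the band, and those of the other 3 classes lie within it.

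The direction for several classes depended on the scale on which effects are summed. On the linear signal scale, 42 of the 43 probes exceeded the sum of the separate increases, whereas 32 lay below the log2 sum. For transcripts lowered by both, 19 of 21 lay above the linear sum, which is a smaller loss of signal than the 2 separate losses added. A signal cannot fall below 0, so this direction was fixed in advance wherever the separate losses together reached the Naive_WT signal. Of the 114 lowered by DSS only, 63 lay below and 51 above the linear sum, beside 11296 below and 10642 above among all tested probes. Signals on an array also have an upper end: the highest normalized value in the data was 14.88, and for 3 probes raised by both, 1 of Reg3b and 2 of Cd74, the summed level lay above it. Without these probes, 29 of 40 had a departure below 0, with a median of -0.43. Without background correction, 22 of the 43 were below 0. The part of the scale in these departures was not tested.

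The windows of 250 bases upstream of the transcription start are shown for 6 genes on which the following results turn: Reg3b (on its bright probe) and Ang4, whose level with both factors lay far below the sum, H2-DMb1 and Ntrk2, raised by both and nearer to it, and Tgm3 and Fxyd4, lowered by both and below it. They are RefSeq sequences of GRCm38.p6, written along the gene's own strand, and capitals mark CpG pairs, the dinucleotide that Mbd2 recognises when it is methylated. Methylation was not measured here.
Reg3b (chr6:78370635-78370884, plus strand): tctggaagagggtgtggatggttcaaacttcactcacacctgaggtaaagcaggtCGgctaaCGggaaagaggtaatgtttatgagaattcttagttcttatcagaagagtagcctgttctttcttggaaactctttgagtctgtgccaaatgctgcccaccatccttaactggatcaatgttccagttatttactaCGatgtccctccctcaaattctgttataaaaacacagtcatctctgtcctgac
Ang4 (chr14:51773591-51773840, minus strand): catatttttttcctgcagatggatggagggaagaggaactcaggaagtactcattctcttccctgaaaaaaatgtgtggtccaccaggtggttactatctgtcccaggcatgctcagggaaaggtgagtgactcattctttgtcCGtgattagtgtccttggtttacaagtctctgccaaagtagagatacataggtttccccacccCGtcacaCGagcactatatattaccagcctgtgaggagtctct
H2-DMb1 (chr17:34152941-34153190, plus strand): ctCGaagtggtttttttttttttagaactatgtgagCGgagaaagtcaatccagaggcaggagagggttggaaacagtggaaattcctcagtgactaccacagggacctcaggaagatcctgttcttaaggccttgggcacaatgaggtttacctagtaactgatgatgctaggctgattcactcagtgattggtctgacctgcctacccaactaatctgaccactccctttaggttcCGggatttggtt
Ntrk2 (chr13:58806319-58806568, plus strand): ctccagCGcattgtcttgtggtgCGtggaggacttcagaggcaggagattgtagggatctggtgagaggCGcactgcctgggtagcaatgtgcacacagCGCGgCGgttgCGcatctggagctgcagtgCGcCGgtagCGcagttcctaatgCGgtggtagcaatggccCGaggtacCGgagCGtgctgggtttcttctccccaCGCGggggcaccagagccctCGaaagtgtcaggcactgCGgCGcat
Tgm3 (chr2:130012090-130012339, plus strand): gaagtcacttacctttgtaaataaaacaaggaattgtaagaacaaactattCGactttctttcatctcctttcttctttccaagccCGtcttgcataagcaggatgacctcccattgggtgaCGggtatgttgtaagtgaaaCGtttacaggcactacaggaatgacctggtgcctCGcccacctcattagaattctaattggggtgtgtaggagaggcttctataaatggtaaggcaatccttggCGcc
Fxyd4 (chr6:117937336-117937585, minus strand): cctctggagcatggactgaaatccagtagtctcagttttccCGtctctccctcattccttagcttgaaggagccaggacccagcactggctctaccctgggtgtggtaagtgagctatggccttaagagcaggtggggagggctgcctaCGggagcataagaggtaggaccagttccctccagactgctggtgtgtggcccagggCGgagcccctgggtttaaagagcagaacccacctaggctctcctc

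These windows hold few CpG pairs, with 3 each in Reg3b, Ang4, H2-DMb1 and Fxyd4 and 6 in Tgm3, except for the 19 of Ntrk2. The median was 3 pairs over the 33 windows found for genes raised by both, 2 over 11 windows of genes lowered by both and 7 over 87 windows of genes lowered by DSS only. It was 5 for genes raised by DSS only, 6 for those raised and 6.5 for those lowered by genotype only, so that all 6 classes lay below the median of all tested genes. Over the 12466 windows of all tested genes it was 14, and over the 32851 windows of all genes it was 6. Differences between classes were not tested. Of 37 genes raised by both 29 had a window.

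Genes of antigen presentation by MHC class II were mostly raised by each factor, and most estimates lay somewhat below the log2 sum. Of 12 class II genes listed, 11 were tested. Genotype raised 8 and DSS raised 7 of them. Their departure was below 0 in 8 and above 0 in 3, with a median of -0.47, beside -0.03 over the 14877 genes tested with 1 probe each. Over all these genes the departure was below 0 in 53.9%, and at an unadjusted p under 0.05 5.48% lay below and 5.12% above the sum. Of the 11, 10 lay above the sum on the linear scale.

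Cd74, the invariant chain that guides class II molecules to the endosome, had the class II departure furthest below 0. Its log2 signal was 10.09, 9.93, 10.18 and 9.03 in the Naive_WT samples and 14.41, 13.07, 13.95 and 12.82 in the Naive_KO samples. With DSS it was 11.47, 11.45, 12.41 and 11.81 in wild-type and 14.20, 14.13, 14.47 and 14.40 in Mbd2-/- cells. 1 of the 4 Naive_KO samples lay within the range of DSS_KO, and all wild-type samples lay below all Mbd2-/- samples. The Mbd2-/- minus wild-type difference was 3.75 without DSS and 2.52 with it, and the departure was -1.24 ± 0.45 (SE), with a 95% interval of -2.19 to -0.29 and an adjusted p of 0.326 (limma). Its summed level would be 15.54, beyond the highest value in the data. A second probe in the bright range and a dimmer one at a mean log2 signal of 9.33 gave departures of -1.18 and -1.19. Its linear departure was above 0, at 4181 ± 3609 (SE) signal units.

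H2-DMb1, a chain of the H2-DM complex that loads peptides onto class II, was at 6.68, 6.24, 6.61 and 6.35 in Naive_WT and 11.68, 9.84, 11.13 and 9.68 in Naive_KO. DSS_WT samples were at 8.13, 7.50, 8.23 and 7.95 and DSS_KO samples at 11.58, 11.17, 11.87 and 11.75. No sample of a wild-type group overlapped an Mbd2-/- sample. The 2 separate changes summed to 5.60 log2 units, the combined change was 5.12, and the departure -0.47 ± 0.48 (SE), with a 95% interval of -1.49 to 0.54 and an adjusted p of 0.776 (limma). The other H2-DM chains and the class II chains had departures of -0.68 (95% interval -1.84 to 0.48) for H2-DMa, -0.53 (95% interval -1.56 to 0.49) for H2-DMb2, -0.92 (95% interval -2.13 to 0.29) for H2-Ab1 and -0.28 (95% interval -1.49 to 0.93) for H2-Aa. Each of these intervals includes 0 and also a shortfall of 1 log2 unit.

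Ciita, the master transactivator of class II genes, stood on the other side of the sum. It was at 4.53, 4.36, 4.53 and 4.40 in Naive_WT, where it was detected on 0 of 4 arrays, and at 8.77, 6.69, 7.99 and 6.17 in Naive_KO. DSS_WT samples were at 5.44, 4.55, 5.78 and 5.48 and DSS_KO samples at 9.22, 8.08, 9.29 and 8.55. Its departure was 0.52 (95% interval -0.78 to 1.82), and because the Naive_WT signal lay at background, changes from it are compressed. These class II values leaned on single Naive_KO samples: the list median was -0.11 without Naive_KO sample 13 and -0.78 without sample 16. Without Naive_KO sample 13 the departure of H2-DMb1 was -0.11 and of Ciita 0.98, and without sample 16 they were -0.78 and 0.11. The range between these 2 settings was -1.13 to -0.32 for H2-DMa, -0.86 to -0.20 for H2-DMb2, -1.29 to -0.57 for H2-Ab1 and -0.68 to 0.13 for H2-Aa. Without background correction H2-DMb1 was at 0.07. Ctss, the protease cathepsin S that trims the invariant chain, lay above the sum at 1.15 (95% interval 0.58 to 1.71), with no called average effect.

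Class I genes were raised mainly by loss of Mbd2, with a median departure near 0. Genotype raised 9 and DSS 1 of the 15 class I genes tested. Of the 15, 11 had a departure above 0, beside 6860 of the 14877 genes tested, with a median of 0.09. Only 8 of the 15 had an interval within 1 log2 unit, beside 12577 of the 14877. H2-Q6 and H2-Q8, nonclassical class I genes of the Qa region, had departures of 0.69 (95% interval -0.53 to 1.91) and 0.62 (95% interval -0.73 to 1.97). Their sequences are close to those of neighbouring H2-Q genes, so the signal of 1 probe may come from several of them, and a second H2-Q8 probe gave -0.09. Among 12 genes of class I loading and the immunoproteasome, the median was -0.09, and 10 lay above the sum on the linear scale. The proteasome subunits Psmb8 and Psmb9 were at -0.85 (95% interval -2.07 to 0.37) and -0.40 (95% interval -1.54 to 0.73), the peptide transporter Tap1 at -0.87 (95% interval -1.96 to 0.22) and the chaperone Calr at 0.59 (95% interval 0.07 to 1.11). These values too moved with single samples. Without Naive_KO sample 16 H2-Q6 was at 0.25, H2-Q8 at 0.18, Psmb8 at -1.25, Psmb9 at -0.78 and Tap1 at -1.24. Without Naive_KO sample 13 H2-Q8 was at 1.05, Psmb9 at -0.003 and Tap1 at -0.50, and without Naive_KO sample 15 H2-Q6 was at 1.04 and Psmb8 at -0.52. Calr was at 0.38 without DSS_WT sample 2. The class I median ran from -0.01 to 0.30 and that of the loading genes from -0.22 to 0.04, in both cases without Naive_KO sample 16 and without sample 13.

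Interferon-gamma response genes had departures on either side of 0. DSS raised 12 and genotype 9 of the 23 tested, of which 11 lay above and 12 below the sum. On the linear scale 20 lay above and 3 below it. The median was -0.09, and 0.14 without background correction. At an unadjusted p under 0.05, 4 (17.4%, against 5.12% of all genes) lay above the sum and 0 (against 5.48%) below it. These were the receptor chain Ifngr2 (0.48), the kinase Jak1 (0.38), the feedback inhibitor Socs1 (0.47) and the guanylate-binding protein Gbp5 (0.54), none of them called for either average effect. Gbp5 was detected on 5 DSS_KO arrays and on 0 arrays of the other groups, so that it entered the test only through the group where it is high. Its place among the 4 above the sum was thus favoured by the filter. Of 3 Jak1 probes 2 lay above the sum, and the other, at -0.11, was detected on 0 Naive_WT arrays and 1 Naive_KO array. Nlrc5, the class I transactivator, was raised by both and had a departure of -0.06 (95% interval -1.30 to 1.19), with 0 Naive_WT arrays detected and 0.32 without background correction. Without Naive_KO sample 15 the list median was 0.07.

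Ido1, which degrades tryptophan, was raised by both. Its log2 signal was 5.15, 4.39, 4.81 and 4.33 in Naive_WT, 11.07, 8.01, 8.82 and 8.50 in Naive_KO, 9.17, 7.62, 10.63 and 10.36 in DSS_WT and 12.49, 12.14, 12.29 and 12.93 in DSS_KO. Every DSS_KO sample lay above all other samples, and every Naive_WT sample below them. Only 1 of 4 Naive_WT arrays detected it, so changes from Naive_WT are compressed. The separate changes summed to 9.20 and the combined change was 7.79, a departure of -1.41 ± 0.85 (SE), with a 95% interval of -3.21 to 0.39 and an adjusted p of 0.593 (limma), and 0.31 without background correction. On the linear scale it was 4070 ± 909.6 (SE) signal units above the sum. The chemokine Cxcl9 was at -0.68 (95% interval -2.41 to 1.04), and at 0.23 without background correction. The guanylate-binding protein Gbp2 was at -0.42 (95% interval -1.98 to 1.14), and its dimmer probe at 0.74. The dimmer probe was detected on 0 naive arrays, 1 DSS_WT array and 4 DSS_KO arrays, so it entered the test only through DSS and mainly through DSS_KO. Without DSS_WT sample 2 Ido1 was at -2.02, Cxcl9 at -1.19 and Gbp2 at -0.85, and without Naive_KO sample 13 they were at -0.75, -0.13 and -0.02.

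Of 16 type I interferon response genes, 11 (68.8%, against 53.9% of all genes) had a departure below 0, with a median of -0.18. The median was -0.28 without Naive_KO sample 16 and -0.07 without Naive_KO sample 15, and on the linear scale 10 of the 16 lay below the sum. Irf9, a transcription factor of the type I interferon response, was the only member below the sum at an unadjusted p under 0.05. It was at -0.84 (95% interval -1.36 to -0.31), and the lowest departure of the list was -0.86. Rsad2, the antiviral protein viperin, lay above at 0.68 (95% interval 0.10 to 1.27). Ifit1bl1, of the interferon-induced tetratricopeptide family, was among the 8 genes furthest below the sum at an unadjusted p under 0.01. It was at 6.65 to 7.36 in Naive_WT, 7.85 to 8.64 in Naive_KO, 7.39 to 8.43 in DSS_WT and 7.03 to 8.31 in DSS_KO, a departure of -1.52.

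**Figure D3:**
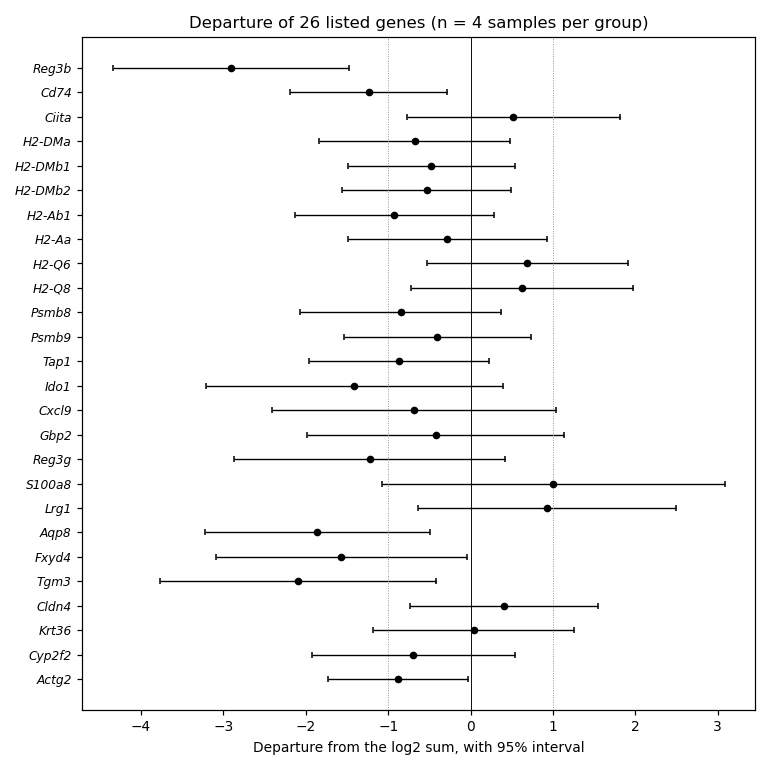
Departure from the log2 sum (horizontal axis) with its 95% interval for 26 genes of antigen presentation, interferon response, antimicrobial defence, transport and barrier, with 4 samples per group. The dotted lines mark 1 log2 unit. The intervals of Reg3b, Cd74, Aqp8, Fxyd4, Tgm3 and Actg2 lie below 0 and the others include it.

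Antimicrobial genes held some of the departures furthest below the sum. Of 22 Reg lectins and other antimicrobial genes, 21 were tested, and DSS raised 14 of them. The departure was below 0 in 14 (66.7%, against 53.9% of all genes), and the median was -0.22. At an unadjusted p under 0.05, 4 (19.0%, against 5.48%) lay below the sum and 1 (4.76%, against 5.12%) above it. Leaving out 1 sample gave a median of -0.47 (Naive_KO sample 16) to -0.09 (Naive_WT sample 9). On the linear scale the direction turned, with 14 of the 21 above the sum and 7 below it.

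Reg3b, a secreted C-type lectin with antibacterial activity, had similar levels with DSS in both genotypes on its bright probe. It was at 9.82, 9.51, 11.92 and 9.36 in Naive_WT, 14.45, 12.67, 13.08 and 12.35 in Naive_KO, 14.53, 13.76, 14.56 and 14.51 in DSS_WT and 14.46, 14.26, 14.77 and 14.18 in DSS_KO. The groups with DSS overlapped, and all Naive_KO samples lay above the Naive_WT samples. The genotype difference was 2.99 without and 0.08 with DSS, and the departure -2.91 ± 0.68 (SE), with a 95% interval of -4.34 to -1.48 and an adjusted p of 0.199 (limma). On the linear scale the departure was -8262 ± 5158 (SE) signal units. A dimmer Reg3b probe had a smaller departure. It was at 5.05, 4.93, 7.29 and 4.84 in Naive_WT, 9.46, 6.92, 7.61 and 6.76 in Naive_KO, 10.08, 8.82, 10.40 and 10.88 in DSS_WT and 12.10, 11.80, 10.63 and 12.06 in DSS_KO, with a departure of -0.55 (95% interval -2.40 to 1.29) and a linear departure of 2047 ± 731 (SE). The bright probe's DSS samples lay at 13.76 to 14.77, near the highest value in the data, and its summed level of 17.33 lay above it.

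Reg3g, the neighbouring lectin gene, was at 6.89, 7.00, 9.13 and 6.82 in Naive_WT and 11.69, 9.65, 9.40 and 9.27 in Naive_KO. With DSS it was at 11.90, 10.88, 12.40 and 12.42 in wild-type and 13.70, 13.11, 12.54 and 13.50 in Mbd2-/- cells. DSS_KO was highest and its samples did not overlap those of DSS_WT. The departure was -1.22 ± 0.78 (SE), with a 95% interval of -2.87 to 0.42 and an adjusted p of 0.616 (limma), and above 0 on the linear scale at 4671 ± 1934 (SE). It was -1.78 without Naive_WT sample 11 and -0.66 without Naive_KO sample 13. Naive_WT sample 11 and Naive_KO sample 13 were each the highest of their group for both lectins.

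Ang4, an antimicrobial ribonuclease, had the lowest departure of the 14877 genes tested with 1 probe each. It was at 8.11, 9.67, 7.57 and 6.82 in Naive_WT, 9.31, 14.08, 13.63 and 9.13 in Naive_KO, 10.15, 12.50, 10.29 and 8.45 in DSS_WT and 9.71, 8.42, 12.21 and 8.46 in DSS_KO. The Naive_KO samples did not share a level: samples 14 and 15 lay above all samples of the other groups, and samples 13 and 16 within the Naive_WT range. The departure was -4.14 ± 1.62 (SE), with a 95% interval of -7.57 to -0.72 and an adjusted p of 0.369 (limma), and no average effect was called. Retnlb, the goblet cell protein RELM-beta, was at -1.89 and the acute phase protein Saa1 at -1.15, both below the sum at an unadjusted p under 0.05. Nos2, the inducible nitric oxide synthase, was above it at 0.79 (95% interval 0.16 to 1.42). It was detected on 0 arrays of Naive_WT and DSS_WT, 2 of Naive_KO and 5 of DSS_KO, so it entered the test mainly through DSS_KO, and its wild-type values lay at background.

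The calprotectin chain S100a8 and the glycoprotein Lrg1 were raised by DSS and lay above the sum, with wide intervals. S100a8 was at 4.43, 4.43, 4.61 and 4.43 in Naive_WT and 5.18, 4.43, 4.52 and 4.38 in Naive_KO, detected on 0 and 1 of 4 arrays, and at 6.42, 5.46, 8.93 and 8.38 in DSS_WT and 10.58, 8.00, 6.76 and 8.46 in DSS_KO. Its departure was 1.00 (95% interval -1.08 to 3.09), and 0.29 without DSS_KO sample 5 or 1.57 without DSS_KO sample 7. Lrg1 was at 0.93 (95% interval -0.63 to 2.50), and 0.55 without DSS_WT sample 2 or 1.58 without Naive_KO sample 13. S100a8 also marks neutrophils: 6 of 14 neutrophil markers were tested, with a summed signal of 166 to 212 in Naive_WT, 178 to 273 in Naive_KO, 342 to 1064 in DSS_WT and 437 to 3355 in DSS_KO. The part of neutrophil RNA in these values was not tested. In bulk samples, fewer cells of a type and less RNA per cell cannot be told apart.

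Ly6a (Sca-1), which marks regenerating colonic epithelium, and Mmp7, a matrix metalloproteinase, were called raised by both on their average effects. They lay on opposite sides of the sum. Ly6a was at 10.96 to 11.35 in Naive_WT, 12.07 to 13.57 in Naive_KO, 12.57 to 13.33 in DSS_WT and 13.64 to 14.20 in DSS_KO, a departure of -0.75 (95% interval -1.49 to -0.02), or -0.48 without Naive_KO sample 13. Mmp7 was at 4.45, 4.51, 4.45 and 4.53 in Naive_WT, 5.50, 4.64, 4.69 and 5.16 in Naive_KO, 5.08, 4.67, 5.14 and 5.45 in DSS_WT and 7.32, 6.40, 5.70 and 7.20 in DSS_KO. All DSS_KO samples exceeded all others, and the departure was 1.06 ± 0.41 (SE), with a 95% interval of 0.20 to 1.91 and an adjusted p of 0.359 (limma). Its naive values were near background, where log2 changes are compressed.

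The mature colonocyte genes had a median departure of -0.16, beside -0.03 over all genes. Of 35 transport and metabolism genes, 32 were tested. DSS lowered 7 and genotype lowered 5 of them. The departure was below 0 in 23 (71.9%, against 53.9% of all genes), with 4 (12.5%, against 5.48%) below and 0 above the sum at an unadjusted p under 0.05. Without DSS_WT sample 4 the median was -0.31 and without DSS_KO sample 8 -0.08. Of the 32, 18 lay below the sum on the linear scale. The difference of the list from other genes was not tested.

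Tgm3, a transglutaminase of differentiated surface epithelium, was at 9.60, 9.65, 9.33 and 10.40 in Naive_WT, 8.65, 9.09, 7.77 and 9.21 in Naive_KO and 9.33, 8.93, 9.06 and 7.47 in DSS_WT. DSS_KO samples were at 4.33, 4.74, 7.59 and 5.46. All of these but DSS_KO sample 7 lay below every other sample. Only 2 of 5 DSS_KO arrays, the repeat included, detected Tgm3, so the level there was partly at background. The separate changes summed to -2.12 and the combined change was -4.21, a departure of -2.09 ± 0.79 (SE), with a 95% interval of -3.77 to -0.41 and an adjusted p of 0.351 (limma). Leaving out single samples gave -2.78 to -1.69.

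Aqp8, the water channel of surface colonocytes, was at 9.71, 10.02, 10.08 and 10.46 in Naive_WT, 8.73, 9.94, 9.84 and 10.72 in Naive_KO, 9.50, 9.55, 9.33 and 8.02 in DSS_WT and 6.48, 7.16, 8.27 and 6.00 in DSS_KO. The naive groups overlapped, and 3 of the 4 DSS_KO samples lay below every other sample. Its genotype difference was -0.26 without DSS and -2.12 with it, a departure of -1.86 ± 0.65 (SE), with a 95% interval of -3.23 to -0.49 and an adjusted p of 0.301 (limma). A second Aqp8 probe gave -1.72.

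Fxyd4, a regulator of the sodium-potassium pump, was at 9.47, 9.94, 9.47 and 11.00 in Naive_WT, 8.41, 8.94, 6.63 and 8.77 in Naive_KO, 9.46, 9.21, 8.53 and 7.88 in DSS_WT and 5.25, 4.65, 6.57 and 5.21 in DSS_KO. All DSS_KO samples lay below every other sample. The departure was -1.57 ± 0.72 (SE), with a 95% interval of -3.09 to -0.05 and an adjusted p of 0.447 (limma). On the linear scale the departures of Fxyd4 and Tgm3 were 342 ± 346 (SE) and 67.1 ± 207 (SE) signal units. For Fxyd4 the mean signal was 1110 in Naive_WT, 342 in Naive_KO and 475 in DSS_WT. The separate losses together thus exceeded the Naive_WT signal. For Tgm3, at 893, 438 and 459, they nearly equalled it. No measured signal could lie below such a sum, so these directions were fixed in advance. The cytochrome P450 gene Cyp2f2 was at -0.70 (95% interval -1.93 to 0.53), and at 0.08 without background correction, -1.13 without Naive_KO sample 15 and -0.31 without sample 14. Its DSS_KO values of 4.31 to 5.11 lay near background, which limits how far a loss can be seen. The water channel Aqp4 was at -0.81 (95% interval -1.57 to -0.06), and its second probe at -0.11.

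Nt5e (CD73, which makes adenosine from AMP) and Scgb2b27, a secretoglobin, were also called lowered by both on their average effects. They belonged to the 8 genes furthest below the sum at an unadjusted p under 0.01. Nt5e was at 8.40, 8.93, 9.12 and 9.93 in Naive_WT, 7.95, 9.26, 9.23 and 8.00 in Naive_KO, 9.14, 9.17, 8.75 and 8.64 in DSS_WT and 7.02, 6.15, 7.26 and 5.94 in DSS_KO. Only DSS_KO stood apart, with no overlap with any other group. The Nt5e difference was -0.49 for genotype without DSS and -0.17 for DSS in wild-type cells, so both of its calls came from DSS_KO. The departure was -1.84 ± 0.52 (SE), with a 95% interval of -2.94 to -0.75 and an adjusted p of 0.235 (limma). Scgb2b27 was at 8.51 to 10.31 in Naive_WT, 8.24 to 8.83 in Naive_KO, 8.30 to 8.87 in DSS_WT and 5.55 to 6.33 in DSS_KO, a departure of -1.48 (95% interval -2.34 to -0.62). Fhl1, a LIM domain protein abundant in muscle, was lowered by DSS only. Its DSS difference was -0.48 in wild-type and -1.98 in Mbd2-/- cells, a departure of -1.50 (95% interval -2.34 to -0.66).

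**Figure D4:**
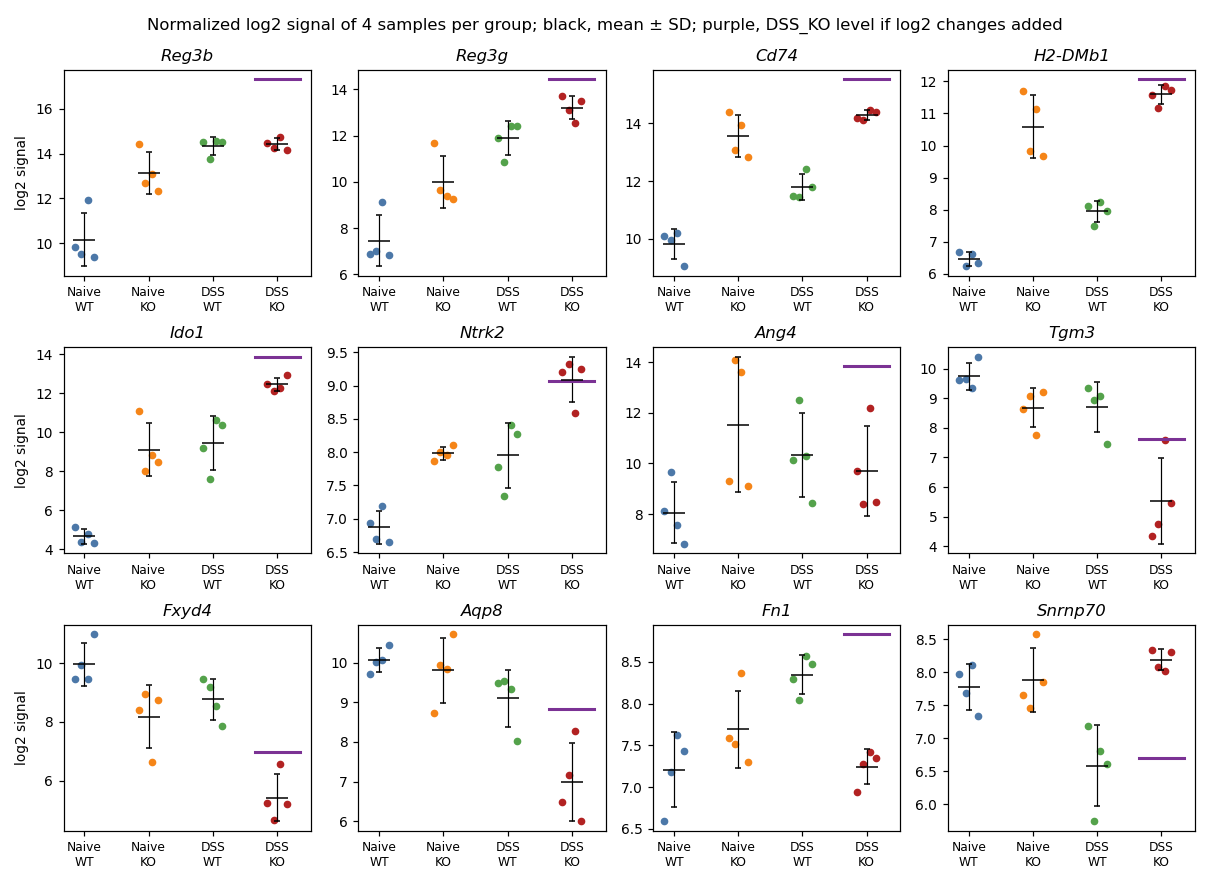
Normalized log2 signal (vertical axis, each panel on its own range) of 12 genes in the 4 samples of each group, with the mean ± SD in black. The purple line is the DSS_KO level that would result if the log2 changes added. All DSS_KO samples lie below this line except for Ntrk2, where they lie on both sides of it, and Snrnp70, where they lie above it.

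Of 17 goblet cell genes tested, 12 (70.6%) had a departure below 0, against 53.9% of all genes, 5 of them (29.4%, against 5.48%) at an unadjusted p under 0.05, with a median of -0.38. Fcgbp, a protein of the mucus gel, was at 10.81, 12.62, 12.19 and 12.61 in Naive_WT, 11.65, 13.48, 12.89 and 11.47 in Naive_KO, 11.92, 12.96, 12.46 and 11.29 in DSS_WT and 9.60, 9.60, 12.26 and 10.13 in DSS_KO. Its genotype difference was 0.31 without and -1.76 with DSS, and the departure -2.07 ± 0.83 (SE), with a 95% interval of -3.83 to -0.31 and an adjusted p of 0.381 (limma). The mucin Muc1 (-0.80), the goblet cell transcription factor Spdef (-0.54), the vesicle protein Sytl2 (-0.54) and the kallikrein Klk1 (-0.34) were the others below the sum at that level. Agr2, which folds mucins, lay above it at 1.14 (95% interval 0.48 to 1.80), and the main mucin Muc2 was at 0.02.

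Barrier and identity genes had medians near 0. Over 28 junction and keratin genes the median was 0.02. Of these, 24 had an interval within 1 log2 unit, a share near that of all genes tested (12577 of 14877). The claudin Cldn4 and the keratin Krt36, lowered by genotype only, had departures of 0.40 (95% interval -0.74 to 1.55) and 0.04 (95% interval -1.18 to 1.26). Cldn4 was at 0.11 without Naive_KO sample 13 and 0.85 without sample 16, and Krt36 at -0.28 without Naive_WT sample 12 and 0.42 without Naive_KO sample 16. Krt36 was at 10.80, 12.07, 10.94 and 12.53 in Naive_WT, 9.61, 9.45, 8.88 and 10.86 in Naive_KO, 11.54, 11.12, 11.42 and 11.24 in DSS_WT and 8.88, 9.31, 9.48 and 10.27 in DSS_KO, so that the genotype difference was -1.85 with DSS and -1.88 without it. The tight junction protein Tjp3 was at -0.52 (95% interval -0.91 to -0.14) and the cadherin Cdh17 at 0.62 (95% interval 0.23 to 1.00). Over 16 epithelial identity genes the median was -0.03 and 14 intervals lay within 1 log2 unit, also a share near that of all genes. Epcam, the surface antigen used for the sort, was at 0.73 (95% interval 0.21 to 1.26), and the intestinal transcription factor Cdx1 at -0.48 (95% interval -0.92 to -0.04) with a second probe at 0.07.

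Enteroendocrine, stem cell and proliferation genes gave medians of -0.07, -0.01 and -0.07 over 17, 18 and 22 tested genes. For proliferation genes 17 intervals lay within 1 log2 unit, beside 12577 of the 14877 genes tested. The replication clamp Pcna (0.75) and the mitotic enzyme Ube2c (0.68) lay above the sum at an unadjusted p under 0.05, as did 5.12% of all genes. The secretory calcium-binding protein Scgn was at -0.48 (-0.30 without Naive_WT sample 9), the Eph receptor Ephb3 at -0.57 (-0.37 without DSS_KO sample 5) and the Wnt inhibitor Rnf43 at 0.64. Over 29 epithelial stress and repair genes the median was -0.05. Of 17 NuRD and methyl-CpG protein genes, 14 had an interval within 1 log2 unit, a share near that of all genes, and none was called for an average effect. Such calls were few over all 14877 genes: genotype raised 107 and lowered 95, and DSS raised 249 and lowered 99. The NuRD subunits Mta1 and Rbbp4 were at -0.67 (95% interval -1.08 to -0.25) and 0.75 (95% interval 0.33 to 1.17), where 3 of 4 Rbbp4 probes lay above the sum and the other at -0.23.

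Among genes whose brightest tested probe was called for both effects, uncharacterized loci left out, Ntrk2, Nlrc5, Capsl and Ccn3 had the smallest departures. Dimmer probes of Lgals9 (-0.03) and Irgm1 (0.05), also called for both effects, had departures as small, while the brightest probes of these genes were not called for both. The 4 genes were chosen for their small departure, so its size is a description. Ntrk2, a neurotrophin receptor, was at 6.94, 6.70, 7.20 and 6.66 in Naive_WT, 7.87, 8.00, 7.96 and 8.11 in Naive_KO, 7.78, 7.34, 8.41 and 8.28 in DSS_WT and 9.20, 9.33, 8.58 and 9.25 in DSS_KO. The changes of 1.11 with loss of Mbd2 and 1.08 with DSS summed to 2.19, and the combined change was 2.22. A second Ntrk2 probe had a departure of 0.64. For Ccn3, a matricellular protein lowered by both, the sum was -3.24 and the combined change -3.08, with a 95% interval of the departure of -0.69 to 1.03. Capsl, a calcium-binding protein, had -2.94 and -2.87. The intervals of the departure were -0.60 to 0.66 for Ntrk2, -0.72 to 0.86 for Capsl and, the widest, -1.30 to 1.19 for Nlrc5. For each of the 4 genes leaving out 1 sample changed the sign of the departure.

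Genes of connective tissue, muscle and vessels lay below the sum almost throughout. The departure was below 0 in 26 of 28 fibroblast and matrix genes, 15 of 15 endothelial genes and 11 of 14 smooth muscle genes, against 53.9% of all genes, with medians of -0.57, -0.43 and -0.34. The smooth muscle median was -0.16 without DSS_KO sample 5 and -0.53 without Naive_WT sample 11. At an unadjusted p under 0.05, 9 matrix (32.1%), 5 endothelial (33.3%) and 4 smooth muscle genes (28.6%) lay below the sum, against 5.48% of all genes. Above it lay 2 matrix genes (7.14%, against 5.12%) and 0 of the other lists. The summed signal of the 28 matrix genes was 9034 to 15039 in Naive_WT, 7386 to 10101 in Naive_KO, 16222 to 22318 in DSS_WT and 10989 to 15060 in DSS_KO. Every DSS_WT sample lay above all other samples. The endothelial sum was 1522 to 2261 in Naive_WT, 1158 to 1390 in Naive_KO, 2042 to 2969 in DSS_WT and 1072 to 1612 in DSS_KO. The smooth muscle sum was 15284 to 22938 in Naive_WT, 12492 to 17255 in Naive_KO, 17968 to 24025 in DSS_WT and 10528 to 15095 in DSS_KO. Without DSS the Mbd2-/- samples thus also lay below the wild-type samples for endothelium, and the naive groups overlapped for smooth muscle. These are cells outside the EpCAM+ gate, and the part of their RNA in the departures was not tested.

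Fn1, the matrix protein fibronectin, was at 6.59, 7.18, 7.62 and 7.43 in Naive_WT, 7.58, 7.52, 8.36 and 7.30 in Naive_KO, 8.29, 8.05, 8.57 and 8.48 in DSS_WT and 6.94, 7.28, 7.41 and 7.35 in DSS_KO. DSS_WT samples lay above all DSS_KO samples. The DSS difference was 1.14 in wild-type and -0.45 in Mbd2-/- cells, and the departure -1.59 ± 0.32 (SE), with a 95% interval of -2.27 to -0.90 and an adjusted p of 0.17 (limma). Its linear departure was -238 ± 52.1 (SE) signal units. The collagen chain Col6a2 was at -1.15, the collagen-binding protein Sparc at -0.96, the muscle protein Tagln at -0.996 (95% interval -1.75 to -0.25), the enteric actin Actg2 at -0.88 (95% interval -1.73 to -0.04) (-0.56 without DSS_KO sample 5) and the endothelial cadherin Cdh5 at -0.91 (95% interval -1.53 to -0.29). The vessel protein Vwf and the muscle protein Lmod1 were at -0.48 and -0.64. Col8a1 and Timp3 were the exceptions in the matrix list, at 1.25 (95% interval 0.26 to 2.24) and 0.79. Col8a1 was at 9.10 to 9.83 in Naive_WT, 7.12 to 9.03 in Naive_KO, 6.67 to 7.62 in DSS_WT and 6.45 to 7.18 in DSS_KO.

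Of 20 myeloid genes 16 were tested, with a median departure of -0.26, and the macrophage receptor Mrc1 at -0.81 (95% interval -1.38 to -0.25). Without DSS_WT sample 3 the median was -0.02 and without Naive_KO sample 16 -0.42, and on the linear scale 10 of the 16 lay above the sum. Their summed signal was 2559 to 3798 in Naive_WT, 2654 to 5684 in Naive_KO, 5176 to 9810 in DSS_WT and 8607 to 10631 in DSS_KO. Myeloid cells also express class II genes, and the part of their RNA in the class II values was not tested. For 11 T and NK cell genes the median was -0.08, with the receptor chain Cd3g at -0.50 near background, for 7 B and plasma cell genes -0.28, and for 6 neutrophil genes 0.58, or 0.05 without DSS_KO sample 5. Leaving out 1 sample gave -0.15 (DSS_KO sample 8) to -0.04 (DSS_WT sample 4) for the T and NK cell genes and -0.49 (Naive_KO sample 16) to -0.18 (Naive_KO sample 13) for the B and plasma cell genes.

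**Figure D5:**
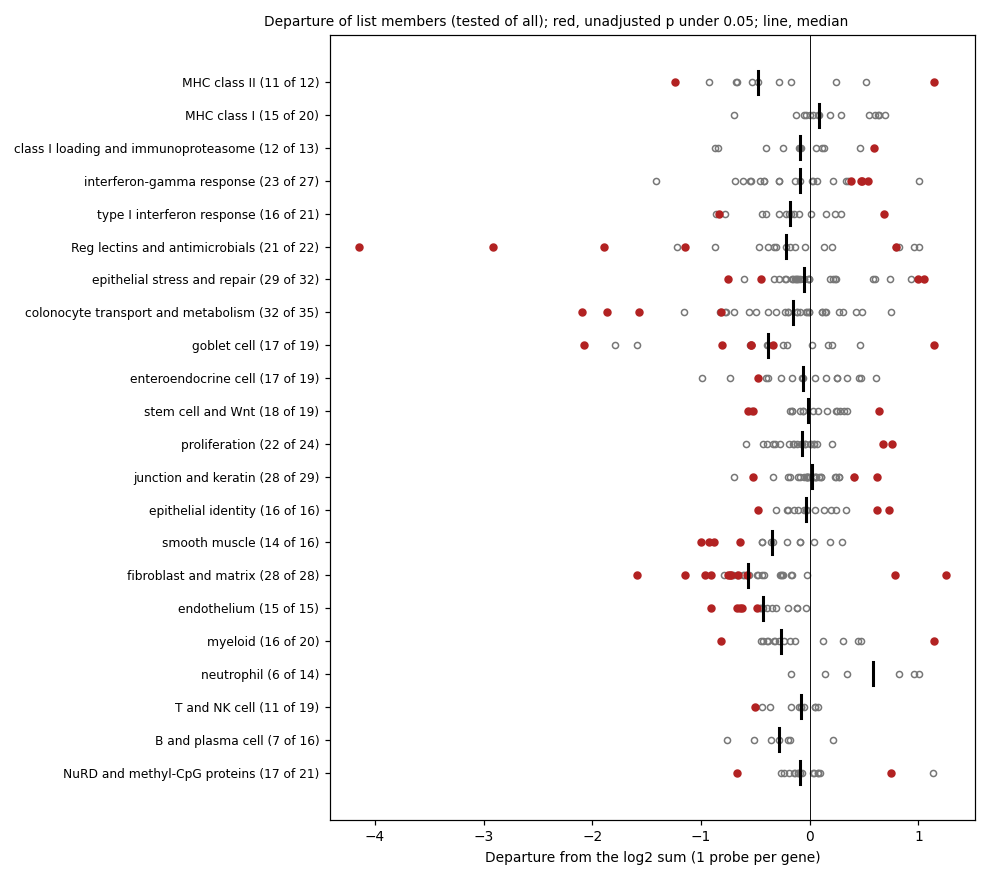
Departure from the log2 sum (horizontal axis) of the tested members of 22 gene lists, 1 probe per gene, with the number tested of all members beside each name. Red points are at an unadjusted p under 0.05 and black lines are list medians. The matrix, endothelial, muscle, goblet cell and class II lists have medians between -0.57 and -0.34.

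The genes furthest above the sum at an unadjusted p under 0.01 included Ddx5, Snrnp70, mt-Nd4l, Atp5md, Zxda, Foxk1 and Snw1, and none of them was called for an average effect. The highest departure over all genes tested was 5.56, of a gene not described here. Ddx5, an RNA helicase, was at 7.25, 6.30, 8.04 and 6.07 in Naive_WT, 6.24, 5.58, 7.25 and 6.43 in Naive_KO, 6.53, 5.44, 5.43 and 5.16 in DSS_WT and 7.59, 6.57, 6.81 and 6.84 in DSS_KO. Snrnp70, a protein of the U1 spliceosomal particle, was at 7.98, 7.69, 8.10 and 7.34 in Naive_WT, 7.66, 7.46, 8.58 and 7.86 in Naive_KO, 7.19, 5.74, 6.80 and 6.61 in DSS_WT and 8.34, 8.09, 8.02 and 8.31 in DSS_KO. For Snrnp70 all DSS_WT samples lay below every other sample, whereas for Ddx5 DSS_WT sample 1 lay among the naive samples. The departures were 1.85 (95% interval 0.60 to 3.09) for Ddx5 and 1.50 (95% interval 0.68 to 2.31) for Snrnp70.

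For Snrnp70 DSS_WT sample 2 was the lowest sample, and without it the departure was 1.21. Second probes did not show the same: Snrnp70 had 0.02 and Foxk1, a forkhead factor, -0.44 against 1.38. The mitochondrially encoded complex I subunit mt-Nd4l was at 9.98 to 10.32 in Naive_WT, 8.44 to 9.08 in Naive_KO, 9.03 to 9.78 in DSS_WT and 9.15 to 10.34 in DSS_KO, a departure of 1.49 (95% interval 0.81 to 2.18). The ATP synthase subunit Atp5md was at 8.03 to 9.36, 7.45 to 8.48, 8.08 to 8.84 and 8.85 to 9.24 in the same order of groups, a departure of 1.45 (95% interval 0.67 to 2.23). The splicing cofactor Snw1 was at 1.36 (95% interval 0.70 to 2.01) and was detected on 0 DSS_WT arrays, and the zinc finger gene Zxda was at 1.42 (95% interval 0.70 to 2.14).

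St6galnac6, a sialyltransferase named here after its values were seen, had tested probes that differed. Its brightest probe had a departure of 0.34 (95% interval -0.10 to 0.79), and the others 2.44, 1.72 and 1.56. The probe at 2.44 was at 9.86, 8.17, 9.70 and 7.86 in Naive_WT, 8.59, 8.52, 9.81 and 8.42 in Naive_KO, 7.65, 4.78, 6.61 and 5.34 in DSS_WT and 8.86, 8.29, 8.65 and 8.08 in DSS_KO. All DSS_WT samples lay below every other sample.

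Ly6m, a Ly6 family surface protein, and Fzd8, a Wnt receptor, completed the 8 genes furthest below the sum at an unadjusted p under 0.01. Ly6m was at 7.64, 6.71, 7.58 and 7.64 in Naive_WT, 7.52, 9.03, 9.18 and 9.16 in Naive_KO, 8.32, 8.30, 7.82 and 8.47 in DSS_WT and 7.24, 8.30, 8.60 and 7.07 in DSS_KO, a departure of -1.76 (95% interval -2.89 to -0.64). Fzd8 was at 5.84, 6.31, 5.10 and 5.65 in Naive_WT, 6.12, 6.61, 6.34 and 6.35 in Naive_KO, 6.75, 6.59, 6.32 and 6.34 in DSS_WT and 5.42, 5.77, 5.75 and 5.82 in DSS_KO, a departure of -1.44 ± 0.28 (SE), with a 95% interval of -2.03 to -0.85 and an adjusted p of 0.17 (limma). Neither was called for an average effect, and for both the genotype difference was above 0 without DSS and below 0 with it.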

How the data were processed

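RNA of sorted mouse CECs was hybridised to Illumina MouseWG-6 arrays. The deposited table holds an averaged intensity per probe and array, exported by the authors from GenomeStudio without normalization or background subtraction, and a deposited detection p-value per probe and array. Analysis tools named in the submitters' processing notes are limma and lumi. Their versions are not given in the sources used here.

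From these intensities, log2 signals were computed with neqc of limma 3.58.1 (R 4.3.3), which corrects background with 936 negative control probes, adds an offset of 16 and quantile-normalizes the 18 arrays. Repeat arrays were averaged, and probes were kept that 4 or more arrays detected (p-value under 0.05). The number of samples, 4 a group, limits the precision. Groups came from the sample titles. One mean per group was fitted with lmFit, and the departure and both average effects were tested with eBayes, two-sided, with Benjamini-Hochberg adjustment over 21938 probes, at the study's thresholds of an adjusted p under 0.01 and 1 log2 unit. Linear departures were computed from group means of the signal and have no test. The script was tested on simulated data. Tables were handled in Python 3.11.15 with pandas 2.3.3 and numpy 2.4.6.

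Of the 45281 probes, 29586 (65.3%) were named through Entrez identifiers in RefSeq's gene table, 3940 by a current and 3319 by an older symbol, and the others keep the symbol of the array. A gene is represented by its tested probe of highest mean signal. Named genes were the 8 furthest above and the 8 furthest below the sum at an unadjusted p under 0.01 (uncharacterized loci left out), 26 genes of antigen presentation, interferon response, defence and barrier, the highest and the lowest member of each list at an unadjusted p under 0.05, and the 4 smallest departures among genes whose probe of highest mean signal was called for both effects (uncharacterized loci left out). Other probes of a named gene were given where the sign was opposite or the difference over 1. For 2 genes that the rule names the results are not reported here. Members and lists were chosen with earlier results of these data known. Alternatives changed the normalization, background correction, offset, detection filter, repeat arrays, prior variance, array weights and the samples included.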

Additional observations from a re-analysis of the deposited data

Results flagged for a closer look

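In these results 1 sample stood apart from the other 3 of its group, by a gap to the nearest that was large against the group's range. Values are normalized log2 signals. Of 300 groups looked at, 22 were so marked, and chance marks about 1 in 20.

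DSS_WT sample 2 was the lowest of its group for Reg3b (13.76) and Ly6a (12.57) and the highest for Rsad2 (8.90) and Ccn3 (7.24). Naive_WT sample 11 was the highest for Reg3g (9.13), S100a8 (4.61) and Actg2 (11.78), and Naive_WT sample 12 for Tjp3 (10.95), Cdh17 (9.39) and Cdx1 (12.03). Naive_WT sample 10 was the lowest for Ly6m (6.71) and the highest for Cd3g (4.74).

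Among Naive_KO samples, sample 13 was the lowest for Ly6m (7.52) and the highest for Reg3g (11.69), sample 15 the lowest for Pcna (7.79) and Cdx1 (11.67), and sample 16 the highest for Rsad2 (8.48). Aqp8 was lowest in DSS_WT sample 4 (8.02). In DSS_KO, sample 7 was the highest for Fhl1 (10.68) and Cdx1 (11.86), sample 5 the lowest for Ube2c (5.79) and sample 8 the lowest for Col8a1 (6.45).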

How the results depend on the processing

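No setting gave a called departure, and the smallest adjusted p (limma) ranged from 0.0174 (without Naive_KO sample 13) to 0.362 (without DSS_KO sample 8). Against 2339 probes at an unadjusted p under 0.05, without the detection filter there were 3759 (1864 above the sum and 1895 below), and 41546 intervals lay within 1 log2 unit of 45281 probes. Median scaling gave 646 below the sum and 950 above it. Without background correction 97 probes were called for genotype and 153 for DSS, and with an offset of 50 there were 153 and 253. Both settings compress low signals. Probes detected on all 18 arrays, which are fewer, gave 299 calls for DSS. The class counts under other settings were added after seeing the data. Among probes detected on all 18 arrays, a departure below 0 was found for 10 of 11 lowered by both, 54 of 76 lowered by DSS only, 100 of 176 raised by DSS only and 26 of 33 raised by both, beside 18 of 21, 83 of 114, 152 of 273 and 32 of 43 in the reported fit.

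Without 1 sample at a time, 1946 to 2707 probes were at an unadjusted p under 0.05 (991 to 1398 above the sum and 912 to 1314 below), 17625 to 18317 intervals lay within 1 log2 unit, and 220 to 330 probes were called for genotype and 393 to 511 for DSS, with 0 calls for the departure throughout. Of probes raised by DSS only, 110 to 182 had a departure below 0.

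Of 660 departures of named genes under settings that kept all samples, 10 changed sign. Without background correction these were H2-DMb1 (0.0663), Ido1 (0.305), Cxcl9 (0.235), Cyp2f2 (0.0781) and Nlrc5 (0.319). Nlrc5 was also at 0.16 with median scaling and 0.33 with the offset of 50, Ntrk2 at -0.0159 with 18 separate arrays and -0.0428 with array weights, and Krt36 at -0.0658 with 18 separate arrays. The cause was not tested. Leaving out 1 sample changed the sign for 6 genes: H2-Aa (-0.68 to 0.13), Krt36 (-0.28 to 0.42), Ntrk2 (-0.18 to 0.20), Nlrc5 (-0.54 to 0.41), Capsl (-0.14 to 0.37) and Ccn3 (-0.0583 to 0.41). On the linear scale 19 of 75 named genes had the opposite sign. Of 198 list medians under settings that kept all samples, 5 changed sign: those of interferon-gamma response (0.14 without background correction), neutrophil and stem cell genes (-0.17 and 0.03 when detected on all 18 arrays), proliferation (0.00 with array weights) and epithelial identity (0.03 with 18 separate arrays). Leaving out 1 sample moved the median across 0 for 10 of 22 lists: class I (-0.01 to 0.30), class I loading (-0.22 to 0.04), interferon-gamma response (-0.23 to 0.07), stress and repair (-0.11 to 0.08), enteroendocrine (-0.18 to 0.11), stem cell (-0.07 to 0.10), proliferation (-0.19 to 0.03), junction and keratin (-0.01 to 0.07), epithelial identity (-0.08 to 0.05) and NuRD genes (-0.12 to 0.03). It moved the departure by over 1.5 times for 29 of 75 named genes. No paired analysis was possible because the groups share no replicate numbers. Probes near background limit how far a loss can be seen.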
